A study of Rattus norvegicus with 4 samples.

Results

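In all, 10 genes that move calcium into and out of the intracellular stores of the carotid body (CB) were followed from the neonate to the adult rat. They were taken by gene name from a table of 32883 genes, and all 10 were found there: the ryanodine receptors Ryr1, Ryr2 and Ryr3, the inositol trisphosphate (IP3) receptors Itpr1, Itpr2 and Itpr3, the calcium pumps Atp2a2 and Atp2a3, the store sensor Stim1 and the entry channel Orai1. CBs of Sprague Dawley rats, an outbred strain, were isolated at postnatal day 5 (neonate) or day 21 (adult) no treatment being named, and their RNA was sequenced after poly A+ selection. Each library pooled the CBs of 6 pups or of 3 adults, as the series' design text has it. There were 2 libraries per age, 4 in all. The paper's methods describe larger pools and more replicates, and both sexes were included. The labels call the 2 libraries of an age biological replicates, and p-values measure the spread between such pools, not between animals.

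The endoplasmic reticulum holds calcium at a far higher level than the cytosol. SERCA pumps, encoded by the Atp2a genes, fill this store with ATP, and ryanodine and IP3 receptors are the channels through which it empties. When the store runs low, STIM1 in its membrane gathers at the cell surface and opens ORAI1, which lets calcium in from outside. In glomus cells, the oxygen-sensing cells of the CB, a rise in cytosolic calcium under hypoxia drives transmitter release, and most of that calcium enters through voltage-gated channels of the surface membrane. The comparison asks how the RNA of the store machinery differed between the age at which CBs respond weakly to hypoxia and the age at which they respond more strongly.

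Of the 9 genes that were tested, 7 differed between ages, and 6 of these 7 were higher in adults. Over all genes tested, 31.1% were higher in adults and 31.2% in neonates. Ryr2 had the largest difference of the 9 that were tested, 3.61-fold higher in adults, followed by Itpr2 (2.54-fold), Atp2a3 (2.15-fold), Stim1 (1.80-fold), Itpr1 (1.45-fold) and Atp2a2 (1.28-fold). Itpr3 was higher in neonates, by 1.42-fold. Ryr3 and Orai1 did not pass the test, and Ryr1 was below the filter on low counts.

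Levels are given in CPM, estimated counts scaled to a common library size, with sizes set by edgeR's TMM method. TMM assumes that most genes are unchanged between libraries or that changes in the 2 directions balance. Means carry the SD over the 2 libraries of an age. Tests are edgeR's quasi-likelihood tests fitted on the 13843 genes that reached 1 CPM or more in 2 or more libraries, with p-values adjusted over all of them, and log2 fold changes are neonate over adult with a standard error (SE). Of the 10 genes, 9 passed the filter. At an adjusted p under 0.05, 6 of the 9 were lower in neonates, against 31.1% of all genes tested, and 1 of the 9 was higher, against 31.2%. With a fold change of at least 2 as well, 3 were lower, against 13.2% of all genes, and 0 were higher, against 7.68%. The neonatal and adult libraries did not overlap for 8 of the 9 genes, which was also the case for 83.0% of all genes tested. The median log2 fold change of the 9 genes was -0.54, and that of all genes tested was -0.0029. Scaled to library size alone, the median of all genes moved to -0.25, and the split of the 9 genes was then 6 lower and 0 higher. Calls over all genes tested went from 4325 higher and 4300 lower in neonates to 2588 higher and 5997 lower under that scaling.

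Library totals ran from 36286191 to 39476110 estimated counts, at which 3 counts, the floor used here, equal 0.0736 to 0.0844 CPM on the TMM scale, counting error only. Markers of glomus cells were present in all 4 libraries. Th, the rate-limiting enzyme of dopamine synthesis, was at 836 to 1405 CPM, and Ndufa4l2 at 682 to 855 CPM. Neonate replicate 1 stood apart in parathyroid RNA, with Pth, parathyroid hormone, at 1771 CPM. It was at 208 CPM in the other neonatal library and had no counts in adults. In whole tissue, fewer cells of a type and less RNA per cell cannot be told apart.

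Upstream sequences are shown for the 3 genes past 2-fold and for Itpr3, which moved the other way, so that the start regions of genes with opposite changes can be read side by side. All 10 genes were matched by symbol to RefSeq windows of the assembly GRCr8, a later build than the Rnor_6.0 used for mapping, and the 250 bases before the listed start are given 5′ to 3′ on the strand of the gene. Ryr2 lies at chr17:63081277-63081526 on the plus strand, Itpr2 at chr4:181134868-181135117 on the minus strand, Atp2a3 at chr10:58080402-58080651 on the plus strand and Itpr3 at chr20:5138562-5138811 on the plus strand. Capitals mark ACGTG or GCGTG on either strand, the core that hypoxia-inducible factors bind.

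Ryr2: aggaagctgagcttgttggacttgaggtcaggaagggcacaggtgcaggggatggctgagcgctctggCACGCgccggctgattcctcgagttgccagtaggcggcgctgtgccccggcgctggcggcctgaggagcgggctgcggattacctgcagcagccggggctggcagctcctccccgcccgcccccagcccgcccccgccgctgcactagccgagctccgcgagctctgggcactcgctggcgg

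Itpr2: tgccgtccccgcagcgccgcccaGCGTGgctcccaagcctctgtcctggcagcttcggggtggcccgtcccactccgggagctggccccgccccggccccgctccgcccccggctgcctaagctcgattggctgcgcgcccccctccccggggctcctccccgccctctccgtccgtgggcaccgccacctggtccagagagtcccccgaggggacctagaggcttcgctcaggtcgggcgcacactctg

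Atp2a3: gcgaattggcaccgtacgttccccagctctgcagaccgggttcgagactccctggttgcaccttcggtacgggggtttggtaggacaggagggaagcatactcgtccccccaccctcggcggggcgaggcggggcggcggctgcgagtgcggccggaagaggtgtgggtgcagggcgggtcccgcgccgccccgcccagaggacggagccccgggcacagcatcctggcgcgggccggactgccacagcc

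Itpr3: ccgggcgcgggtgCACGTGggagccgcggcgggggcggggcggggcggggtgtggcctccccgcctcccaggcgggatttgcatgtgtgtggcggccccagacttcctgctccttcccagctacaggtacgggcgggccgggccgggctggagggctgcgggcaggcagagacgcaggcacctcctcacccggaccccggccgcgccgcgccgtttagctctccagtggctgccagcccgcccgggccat

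The core was present in the windows of Ryr2, Itpr2 and Itpr3 and not in that of Atp2a3, and 36.7% of all 33469 windows of this length held it. The core itself holds a CpG, and these 4 windows were richer in CpG than most, so that share is not a like baseline. Of the other genes, Atp2a2, Stim1, Orai1 and Ryr1 had the core, and Itpr1 and Ryr3 did not. In Itpr3 the capitals form CACGTG, a palindrome that gives a match on each strand and is also an E-box (CANNTG, in 65.5% of all windows). GC boxes (GGGCGG on either strand, in 30.5% of all windows) numbered 3 in Ryr2, 4 in Itpr2, 4 in Atp2a3 and 5 in Itpr3, and TATAAA was found in none of the 4, against 12.9% of all windows. CpG dinucleotides numbered 23, 25, 27 and 28 in the same order, against a median of 5 over all windows. These 4 start regions were thus alike in being rich in CpG and GC boxes, whichever way the gene moved. Itpr1 had 9 CpG and the farther upstream of the 2 windows listed for Ryr3 had 29, while its other window had 3.

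**Figure D1:**
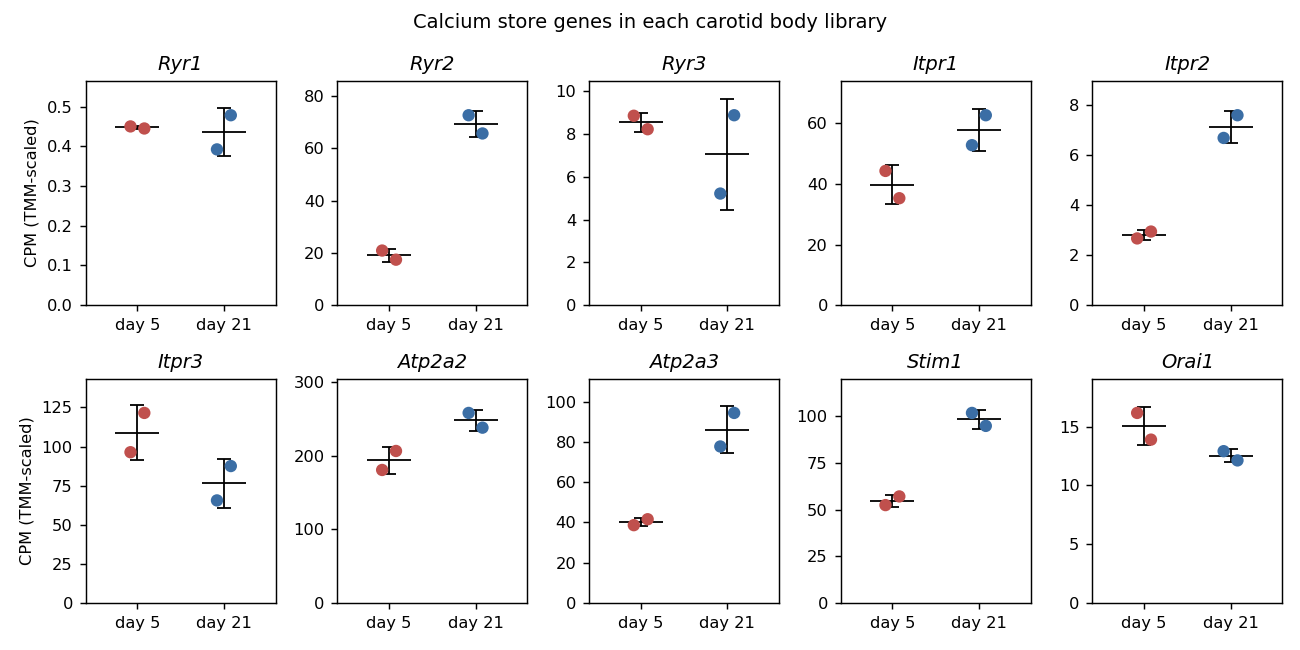
Level of each of the 10 genes in each library, in TMM-scaled CPM on linear axes that start at 0, with day 5 in red and day 21 in blue; each point is 1 library, replicate 1 on the left, and the bars are the mean and SD over 2 libraries. Relative to their own level, Ryr2, Itpr2, Atp2a3 and Stim1 show the widest gaps between ages (1.80-fold to 3.61-fold), and the ages overlap for Ryr1 and Ryr3.

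Ryanodine receptors are the largest known calcium release channels and open when calcium itself binds from the cytosol. Ryr2 (ENSRNOG00000017060), best known as the release channel of the heart and also the main form in brain, had 20.9 and 17.4 CPM in the neonatal libraries and 72.6 and 65.7 CPM in the adult libraries. Every adult library was thus far above every neonatal library. The means were 19.2 ± 2.47 CPM in neonates and 69.2 ± 4.93 CPM in adults (SD, n = 2), a log2 fold change of -1.85 (SE 0.12, edgeR adjusted p = 5.4e-06). Leaving out each library in turn gave -1.99 to -1.72.

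Ryr3 (ENSRNOG00000006645), a form with low levels in many tissues, had 8.86 and 8.23 CPM in neonates and 5.22 and 8.89 CPM in adults. The adult libraries lay on either side of the neonatal ones, so the ages overlapped. Its log2 fold change was 0.28 (SE 0.26, edgeR adjusted p = 0.38). Without adult replicate 1, the low library, it was -0.056, and without adult replicate 2 it was 0.71 (edgeR adjusted p = 0.082). Ryr1 (ENSRNOG00000020557), the release channel of skeletal muscle, had 16 counts in each neonatal library and 16 and 19 in the adult ones. That is 0.392 to 0.478 CPM, above the floor of 3 counts in every library and too low for the test.

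Within the ryanodine receptor family, the make-up by counts did not overlap between ages. Ryr2 took 69.2% and 66.7% of the family's counts in neonates and 92.8% and 87.5% in adults. Ryr3 took 29.3% and 31.6% in neonates and 6.67% and 11.8% in adults. In CPM, Ryr3 itself overlapped between ages, and Ryr2, in the same sum, was higher in adults. The neonatal share of Ryr3 was 21.2 percentage points higher than the adult share, on means of 30.4% ± 1.57 and 9.26% ± 3.65 (SD, n = 2). Such shares do not depend on the scaling between libraries. They do depend on transcript length, which was not in the tables used, so they compare ages and not isoforms. Wilson 95% intervals of single shares were at most 6.02 points wide and cover counting error only. With 2 libraries against 2, an exact two-sided permutation test cannot go below 0.33, and it gave 0.33 for each of the 8 shares of the 3 families (0.33 after adjustment over the 8).

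**Figure D2:**
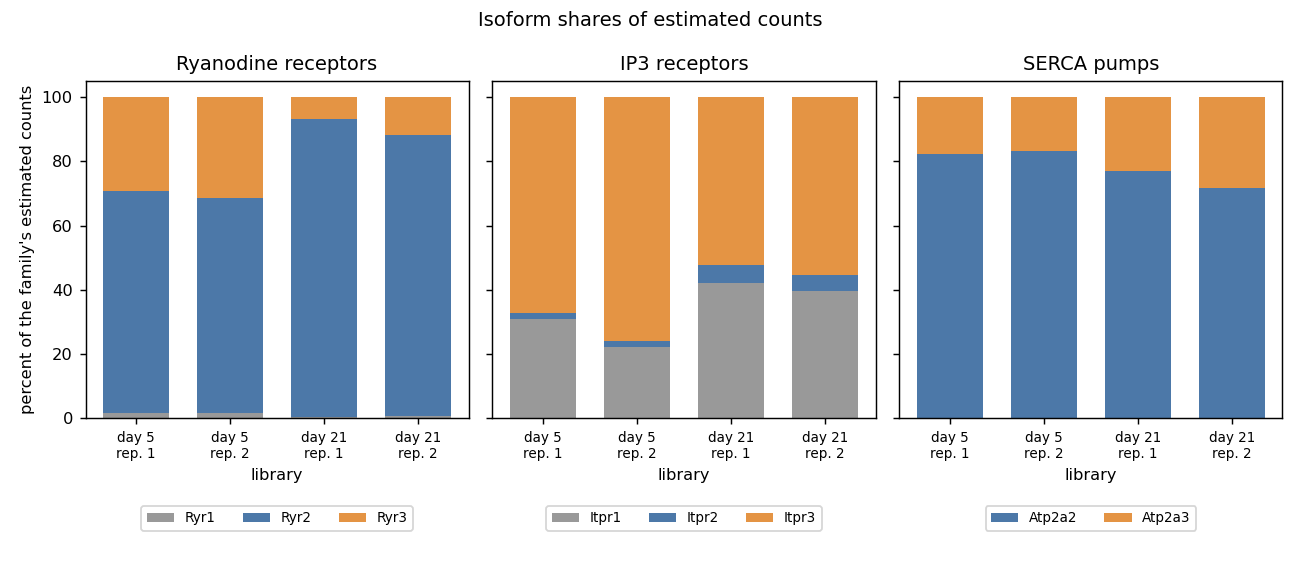
Share of each isoform in the estimated counts of its family, in percent, in each of the 4 libraries, for ryanodine receptors, IP3 receptors and SERCA pumps. Ryr2 fills more of the bar at day 21 (87.5% and 92.8%) than at day 5, and so do Itpr1 (39.7% and 42.2%) and Atp2a3 (23.1% and 28.4%).

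IP3 receptors open when a surface receptor has activated phospholipase C and IP3 is formed. Itpr1 (ENSRNOG00000007104), the main form of neurons, had 44.3 and 35.3 CPM in neonates and 52.7 and 62.6 CPM in adults. Both adult libraries were above both neonatal ones, with a spread within each age. The means were 39.8 ± 6.36 and 57.7 ± 6.98 CPM (SD, n = 2), a log2 fold change of -0.54 (SE 0.13, edgeR adjusted p = 0.0063). Itpr2 (ENSRNOG00000001804), the form most sensitive to IP3, was at a low level, with 2.67 and 2.95 CPM in neonates and 6.69 and 7.60 CPM in adults. Its adult libraries were more than 2-fold above its neonatal ones, with a log2 fold change of -1.35 (SE 0.24, edgeR adjusted p = 0.0012).

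Itpr3 (ENSRNOG00000052795), common in secretory and epithelial cells, went the other way, with 96.4 and 121 CPM in neonates and 65.5 and 87.5 CPM in adults. The lower neonatal library was close to the higher adult library, so the ages were parted by a small gap. The means were 109 ± 17.8 and 76.5 ± 15.5 CPM (SD, n = 2), a log2 fold change of 0.51 (SE 0.15, edgeR adjusted p = 0.014). This call was lost without neonate replicate 2 (0.34, edgeR adjusted p = 0.058), without adult replicate 1 (0.32, edgeR adjusted p = 0.061) and under library size alone (0.27, edgeR adjusted p = 0.18).

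In the IP3 receptor family, Itpr3 was higher in neonates under TMM while Itpr1 and Itpr2 were lower, and the summed level overlapped between ages. It was 143 and 160 CPM in neonates and 125 and 158 CPM in adults. Itpr3 held 67.2% and 76.1% of the family's counts in neonates and 52.4% and 55.5% in adults, and Itpr1 held 30.9% and 22.1% in neonates and 42.2% and 39.7% in adults. Itpr2 was the smallest part by counts, at 1.87% and 1.85% in neonates and 5.36% and 4.82% in adults. For the ryanodine receptors the sum itself differed, with 30.2 and 26.1 CPM in neonates and 78.3 and 75.0 CPM in adults.

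SERCA pumps return calcium to the store. Atp2a2 (ENSRNOG00000001285), the pump of nearly all cells with a muscle form made by splicing, had 181 and 207 CPM in neonates and 258 and 238 CPM in adults. The adult libraries were above the neonatal ones by a modest margin, with a log2 fold change of -0.36 (SE 0.092, edgeR adjusted p = 0.0080). Without neonate replicate 1, the library rich in parathyroid RNA, it was -0.26 (edgeR adjusted p = 0.061) and the call was lost. Gene-level counts do not separate its splice forms.

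Atp2a3 (ENSRNOG00000017912), a pump of lower calcium affinity known from blood cells, endothelium and some secretory cells, had 38.7 and 41.6 CPM in neonates and 77.8 and 94.4 CPM in adults. Both adult libraries were about 2-fold above the neonatal ones. The log2 fold change was -1.10 (SE 0.11, edgeR adjusted p = 5.0e-05), and -0.95 without adult replicate 2, which is less than 2-fold. The share of Atp2a3 in the counts of both pumps was 17.6% and 16.8% in neonates and 23.1% and 28.4% in adults. Atp2a1, the pump of fast skeletal muscle, was not found by symbol, so the shares cover Atp2a2 and Atp2a3 only.

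Store-operated entry links an empty store to the surface membrane. Stim1 (ENSRNOG00000020425), the sensor, had 52.4 and 57.1 CPM in neonates and 101.8 and 94.9 CPM in adults. The gap between ages was wide against the spread within them, with a log2 fold change of -0.84 (SE 0.088, edgeR adjusted p = 5.9e-05). Under library size alone it was -1.09, past 2-fold. Orai1 (ENSRNOG00000001336), the channel that STIM1 opens, had 16.2 and 13.9 CPM in neonates and 12.9 and 12.1 CPM in adults. Its neonatal libraries were slightly above its adult ones, with a log2 fold change of 0.26 (SE 0.15, edgeR adjusted p = 0.14) that was 0.017 under library size alone. Sensor and channel thus lay on opposite sides of 0, and the difference between them was not tested.

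**Figure D3:**
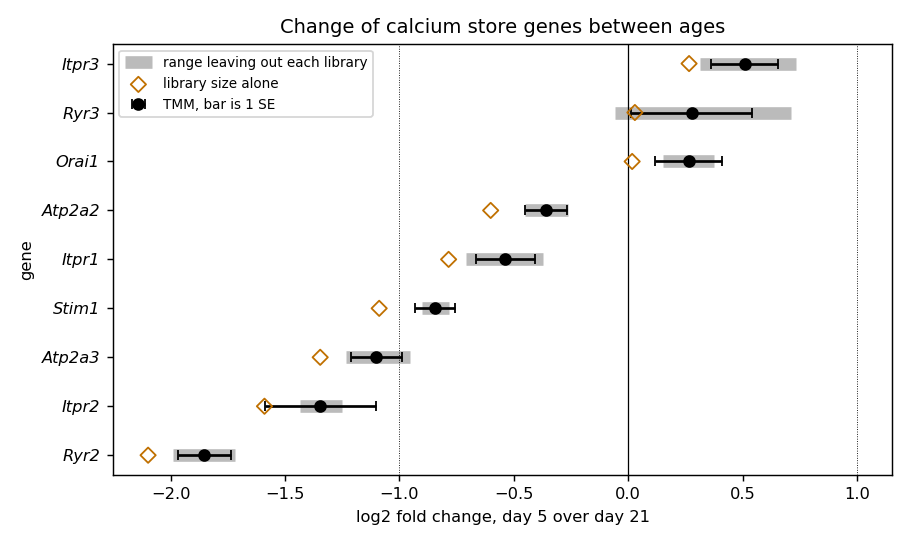
Log2 fold change, day 5 over day 21, of the 9 genes tested; black points with bars are the TMM estimate and its SE, open diamonds the estimate under library size alone, and grey bars the range when each library is left out in turn. Values left of 0 are higher in adults, dotted lines mark 2-fold, and the grey bar of Ryr3 crosses 0 (-0.056 to 0.71).

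Other genes of calcium stores were read by role, from lists of 93 genes of which 89 were found by symbol and 78 were tested. Of the 78, 37 were lower in neonates and 14 were higher at an adjusted p under 0.05, and 27 did not pass. These are 47.4% lower and 17.9% higher, against 31.1% and 31.2% of all genes tested. The counts per role list below stand against the same shares, and the lists are small. With at least 2-fold, 11 were lower and 3 were higher, or 14.1% and 3.85%, against 13.2% and 7.68% of all genes, so the share at least 2-fold lower was near that of all genes. Their median log2 fold change was -0.30. Under library size alone, 49 were lower and 5 higher, with 17 lower by at least 2-fold, and without adult replicate 1 there were 29 lower and 8 higher. Without neonate replicate 1, Casq1 (0.93), Cd38 (-0.91) and Mcur1 (-0.88) passed the test with less than 2-fold.

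Regulators of the pumps were represented by Pln alone among the genes tested. Pln, phospholamban, which restrains SERCA2 in heart and smooth muscle, had 2.79 and 1.39 CPM in neonates and 9.59 and 11.8 CPM in adults, with a log2 fold change of -2.36 (SE 0.33, edgeR adjusted p = 0.00028). Sln, sarcolipin of skeletal muscle and atrium, had 0 counts in all 4 libraries. Thus Pln and the pump gene Atp2a2 were both higher in adults.

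Of 12 calcium binders of the store lumen, 6 were higher in neonates and 3 lower, a balance that turned under library size alone (1 higher and 5 lower). Casq1, the calsequestrin of skeletal muscle, was higher in neonates at a low level, 3.71 and 3.31 CPM against 1.40 and 2.09 CPM (log2 fold change 1.01, SE 0.33, edgeR adjusted p = 0.024), a call lost without adult replicate 1 (0.75, edgeR adjusted p = 0.19) and under library size alone (0.76, edgeR adjusted p = 0.072). Casq2, the cardiac and smooth muscle calsequestrin, had 8.86 and 9.12 CPM in neonates and 13.6 and 17.5 CPM in adults. Its log2 fold change was -0.79 (SE 0.17, edgeR adjusted p = 0.0032), and -0.60 without adult replicate 2 (edgeR adjusted p = 0.056). Calr, calreticulin, the main lumenal binder of non-muscle cells, had 895 and 979 CPM in neonates and 923 and 835 CPM in adults, with overlap and a log2 fold change of 0.092 (SE 0.098, edgeR adjusted p = 0.43) that was -0.15 under library size alone.

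Among 12 partners of ryanodine receptors, 6 were lower in neonates and 4 higher (7 and 1 under library size alone). Fkbp1b, which encodes the calstabin that binds RyR2, was higher in neonates, with 32.3 and 29.0 CPM against 12.7 and 9.97 CPM (log2 fold change 1.43, SE 0.14, edgeR adjusted p = 4.4e-05). Its neonatal level was thus high where Ryr2 was low. Fkbp1a, its close relative and the binding partner of RyR1, had a log2 fold change of 0.32 (SE 0.083, edgeR adjusted p = 0.0079), and 0.080 under library size alone (edgeR adjusted p = 0.44). Jph2, junctophilin of heart and smooth muscle, was near the limit of the filter, with 0.338 and 0.0556 CPM in neonates and 0.981 and 1.33 CPM in adults (log2 fold change -2.54, SE 0.66, edgeR adjusted p = 0.0086). These were 12 and 2 counts in neonates, the latter under the floor of 3, and the size of the difference rests on them, with -4.30 without neonate replicate 1 and -1.76 without neonate replicate 2.

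Of 9 partners of IP3 receptors, 6 were lower in neonates and 0 higher, where 31.2% of all genes were higher. Ahcyl1, which encodes IRBIT, a protein that competes with IP3 for its receptor, had 193 and 195 CPM in neonates and 251 and 237 CPM in adults (log2 fold change -0.33, SE 0.077, edgeR adjusted p = 0.0051). Itpripl2 and Itpripl1, relatives of an IP3 receptor binding protein, were at low levels with log2 fold changes of -1.98 (SE 0.33) and -1.75 (SE 0.35). Of 11 phospholipase C genes, which act upstream of IP3 receptors, 6 were lower and 2 higher in neonates (6 and 1 under library size alone). Plcb4, with the highest mean CPM of the list, had 355 and 375 CPM in neonates and 619 and 592 CPM in adults (log2 fold change -0.73, SE 0.086, edgeR adjusted p = 0.00011). Plch2 and Plcd4, both under 7 CPM, had log2 fold changes of -1.33 (SE 0.33) and -1.26 (SE 0.31), and the calls were lost without adult replicate 2 for Plch2 (-0.89, edgeR adjusted p = 0.12) and without adult replicate 1 for Plcd4 (-1.09, edgeR adjusted p = 0.056).

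In store-operated entry, 3 of 6 other genes were lower in neonates and 0 were higher, against 31.1% and 31.2% of all genes tested. Orai2, a relative of Orai1 that tempers its current, had 21.7 and 18.9 CPM in neonates and 35.8 and 30.9 CPM in adults (log2 fold change -0.71, SE 0.12, edgeR adjusted p = 0.00074). Trpc1, a cation channel of the surface membrane, had a log2 fold change of -0.69 (SE 0.14, edgeR adjusted p = 0.0027). Saraf, which encodes an inhibitor of STIM1, had a log2 fold change of -0.31 (SE 0.089, edgeR adjusted p = 0.014), lost without neonate replicate 1 (-0.23, edgeR adjusted p = 0.095) or adult replicate 1 (-0.22, edgeR adjusted p = 0.083). Of 5 counterion and leak channels, 3 were lower in neonates, with Tmbim6, a calcium leak protein, at -0.81 (SE 0.089) and Tmem38b, a potassium channel of the store, at -0.55 (SE 0.097).

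Genes that clear calcium from the cytosol by other routes held the largest difference among the 78 when all 4 libraries were fitted. Slc8a1, the sodium-calcium exchanger of heart and smooth muscle, had 1.04 and 0.890 CPM in neonates and 8.38 and 8.13 CPM in adults, which gave a log2 fold change of -3.09 (SE 0.27, edgeR adjusted p = 2.5e-05). Atp2b1, the common surface membrane calcium pump, had 17.2 and 15.1 CPM in neonates and 47.7 and 51.6 CPM in adults (log2 fold change -1.62, SE 0.11, edgeR adjusted p = 6.8e-06). Atp2b4, the highest of the list by CPM, had a log2 fold change of -0.14 (SE 0.086, edgeR adjusted p = 0.18), and passed without adult replicate 1 (-0.24, edgeR adjusted p = 0.047) and under library size alone (-0.39, edgeR adjusted p = 0.0066). In all, 4 of 8 genes of this list were lower in neonates and 1 was higher, and under library size alone 7 were lower and 1 higher.

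For mitochondrial calcium uptake, 4 of 9 genes were lower in neonates and 0 higher, with Letm1, a cation exchanger of the inner membrane, at -0.98 (SE 0.12) and Mcur1, a regulator of the uniporter, at -1.36 (SE 0.42). The call of Mcur1 was lost without adult replicate 1 (-1.37, edgeR adjusted p = 0.062) or 2 (-1.35, 0.068 in edgeR), and its value was -0.88 without neonate replicate 1 and -2.08 without neonate replicate 2. Micu2, a gatekeeper of the uniporter, had a log2 fold change of 0.11 (SE 0.077, edgeR adjusted p = 0.24), and -0.13 under library size alone. Among 5 genes of acidic stores, 1 was higher and 1 lower in neonates (1 and 3 under library size alone). Tpcn2, a lysosomal cation channel, was higher in neonates, with 64.0 and 62.7 CPM against 24.7 and 28.2 CPM (log2 fold change 1.26, SE 0.10, edgeR adjusted p = 1.6e-05). Tpcn1, its relative, was at -0.19 (SE 0.088, edgeR adjusted p = 0.082) and passed without neonate replicate 2 (-0.27, edgeR adjusted p = 0.045), under library size alone (-0.44, edgeR adjusted p = 0.0045) and with a mean of at least 5 CPM (-0.23, edgeR adjusted p = 0.039). Cd38, which makes a messenger that acts on ryanodine receptors, was at -1.06 (SE 0.30, edgeR adjusted p = 0.013), lost without adult replicate 1 (edgeR adjusted p = 0.056) or 2 (0.093 in edgeR).

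**Figure D4:**
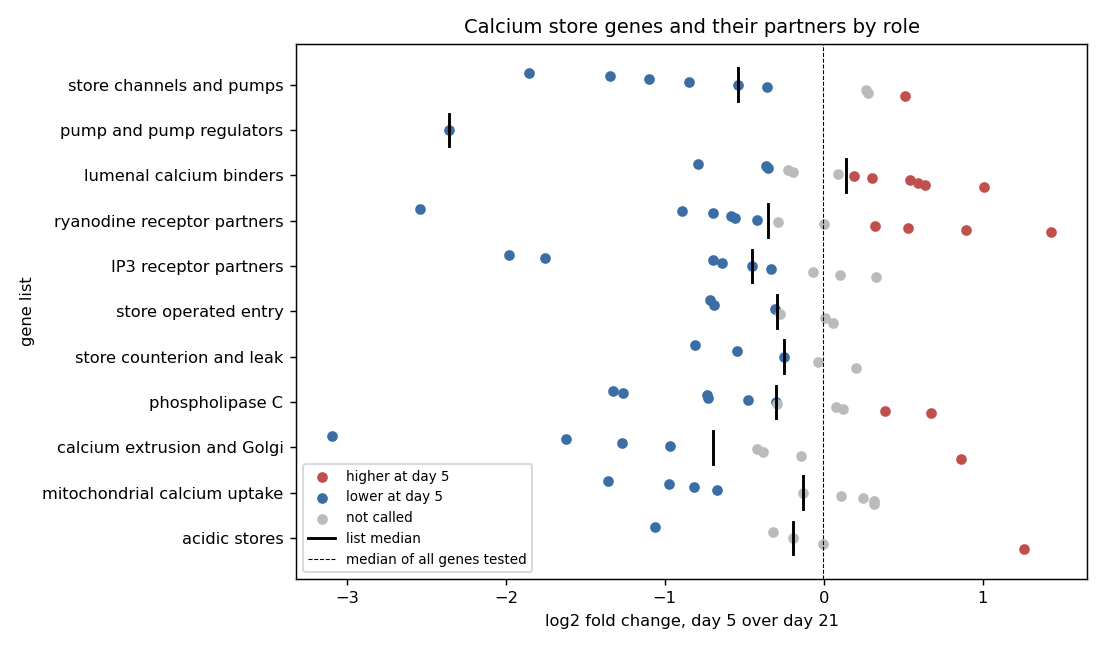
Log2 fold change, day 5 over day 21, of each gene tested, by role; red points are higher and blue points lower at day 5 at an adjusted p under 0.05, grey points did not pass, black lines are list medians and the dashed line is the median of all genes tested. The channels and pumps have a median of -0.54, and the lumenal calcium binders, at 0.14, are the list whose median lies right of 0 (-0.10 under library size alone).

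Several of the genes that were higher in adults are also expressed outside glomus cells, and markers of those cells were read beside them. The marker lists are small, and 31.1% of all genes tested were lower in neonates and 31.2% higher. Of 8 smooth muscle markers, 4 were lower in neonates and 2 higher, and their summed level was 705 and 742 CPM in neonates and 834 and 972 CPM in adults. Lmod1 among them had a log2 fold change of -1.55 and Acta2 of -0.03. Cardiac muscle markers summed to 8.86 and 9.68 CPM in neonates and 3.38 and 3.52 CPM in adults, with 2 of 6 tested, both higher in neonates, and with Myh6 and Actc1 at or near 0 in every library. Skeletal muscle markers summed to 33.6 and 37.2 CPM in neonates and 51.9 and 59.0 CPM in adults, with 14 of 16 found. Myh8 had 0 counts, and Myh3 (11.1 and 8.04 against 33.2 and 31.6 CPM) made up most of the adult sum. Of the 6 tested, 1 was lower in neonates (Myh3) and 1 higher (Tnnc2, 4.47 and 4.17 against 0.907 and 1.91 CPM). The other 4 did not pass, and the list's median log2 fold change was 0.13.

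Glomus cell markers, 12 in all, were higher in neonates for 5 and lower for 2, with sums of 7148 and 5663 CPM in neonates and 6176 and 5083 CPM in adults. Chga among them, a granule protein that parathyroid cells also make, had 1723 and 792 CPM in neonates and 785 and 660 CPM in adults. It gave 0.80 on the log2 scale, a value of 0.13 once neonate replicate 1 was left out (edgeR adjusted p = 0.40). Of 8 neuron markers, 7 were higher in neonates, with sums of 2893 and 2672 against 2101 and 1756 CPM. Endothelial markers, of which 5 were tested, were lower in neonates for 3 and higher for 0, with sums of 745 and 794 CPM against 847 and 853 CPM. Of 6 macrophage markers, 4 were lower in neonates and 1 higher, with sums of 70.2 and 77.2 CPM against 118.9 and 114.9 CPM. Of 8 lymphocyte markers, 2 were tested, and of these Ptprc was lower in neonates and Cd79a higher, with sums of 7.37 and 11.2 against 12.6 and 13.8 CPM.

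Platelet and erythroid markers, of which 4 of 5 were tested, were higher in neonates for 3 and lower for 0, with sums of 2953 and 1768 against 792 and 778 CPM. Glial markers, 6 in all, were lower in neonates for 2 and higher for 1, with sums of 1001 and 2095 CPM in neonates and 1662 and 1775 CPM in adults. Adipocyte markers, 4 in all, were lower in neonates for 3 and higher for 0, with sums of 7.06 and 8.43 against 24.6 and 39.1 CPM. Parathyroid and thyroid markers summed to 1795 and 212 CPM in neonates and to 0.760 and 0.604 CPM in adults. Under library size alone, the glomus list had 2 higher and 3 lower in neonates, the smooth muscle list 0 and 5, the glial list 0 and 3, the macrophage list 0 and 4, the lymphocyte list 0 and 1, and the neuron list 6 and 1. The part of these cell types in the differences of the store genes was not tested.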

How the data were processed

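RNA of CBs was measured in 4 libraries, grouped by age from the sample titles. The authors deposited estimated counts per gene, not normalized, made from trimmed reads with STAR and Salmon (1.5.2 in the submitters' processing notes) on Rnor_6.0. Estimated counts were rounded. Genes annotated by symbol as other than protein-coding in a RefSeq table of GRCr8 (664 of 32883) were removed, and a level of 1 CPM was required in 2 libraries or more. Ages were compared with edgeR 4.0.16 in R 4.3.3 (TMM, quasi-likelihood test, no covariates, Benjamini-Hochberg over 13843 genes). The SE is the log2 fold change over the square root of F. The test was checked on simulated counts.

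Named were all 10 genes and, per role list, the 2 called genes with the largest change and the gene with the highest CPM. Sln and single markers (Chga, Lmod1, Acta2, Myh3 and others) were named after their values were seen. The 10 genes and all lists were chosen with earlier results of these data known. Isoform shares were planned per coding length, but no lengths were used here, so they are shares of counts. Whether counting used strand is not given in the sources used here.

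Alternatives were DESeq2 1.42.0, limma-voom (limma 3.58.1), library size alone, RLE scaling, TMM taken from genes other than mitochondrially encoded and ribosomal protein ones, 2 other filters on low levels (none, or a mean of 5 CPM), noncoding genes kept, a replicate block and each library left out.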

Additional observations from a re-analysis of the deposited data

How the results depend on the processing

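Calls for the 9 genes tested were the same under DESeq2, limma-voom, RLE size factors, TMM without mitochondrially encoded and ribosomal protein genes, both other filters and noncoding genes kept. Under library size alone, the count higher in neonates was 0, Itpr3 was at 0.27 on the log2 scale, store genes were 5 higher and 49 lower at an adjusted p under 0.05, with 2 higher and 17 lower by at least 2-fold, and Calr (-0.15) and Micu2 (-0.13) reversed. With a mean of at least 5 CPM, 5 store genes were lower by at least 2-fold, fewer genes being tested. Leaving out each library in turn gave 0 to 1 of the 10 genes higher, 8 to 13 store genes higher, Ryr3 at -0.056 to 0.71 (reversed without adult replicate 1), Itpr3 at 0.32 to 0.73 and Atp2a2 at -0.45 to -0.26. With 1 library left in an age, it is assumed to vary like the others. Mitochondrially encoded genes, taken by name, held 18.7% and 15.6% of estimated counts in the neonatal libraries and 9.06% and 9.08% in the adult ones. The cause of the shifts above was not tested. Over all alternatives, log2 fold changes of the 9 genes tested kept direction and side of the threshold in 112 cases, lost the call in 4 and reversed in 1.

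Deviations of same-numbered libraries from the mean of their age were not correlated across genes (Pearson r -0.0154). With 2 libraries per age, this cannot show whether pools of the 2 ages shared litters or batches. With the replicate block, 1 of the 10 genes was higher and 6 were lower, the same genes, with Ryr2 at -1.86, and over all genes tested 4542 were higher and 4551 lower. Among named store genes, Tpcn1 alone changed its call (-0.20, edgeR adjusted p = 0.048). Transcript length, splice forms and depth limit what these counts show for Ryr1, at 16 to 19 counts.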
